A study of Mus musculus with 15 samples.

Results

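De novo lipogenesis is the synthesis of fatty acids from carbohydrate carbon, and its 10 enzymes and regulators Fasn, Acaca, Acacb, Acly, Scd1, Scd2, Elovl6, Srebf1, Mlxipl and Me1 were examined in mammary tissue of nude mice. They were chosen by gene name and are 10 of the 52526 genes in the expression tables. Female nu/nu mice, which lack a functional Foxn1 gene and therefore a thymus, carried osmotic pumps from 8 weeks of age that delivered either vehicle (PEG300 with 1% DMSO, 8 mice) or BDE-47 in that vehicle at 0.03 mg/kg/d (7 mice). BDE-47 is the congener of the polybrominated diphenyl ether flame retardants most often found in people. After 16 weeks, RNA of the left 4th mammary tissue was sequenced with a 3′ tag method, 1 library per mouse, and the values are log2 of CPM, the reads of a gene scaled to 1 M mapped reads, in which anything below 1 CPM is given as 0. The comparison asks whether transcripts of fatty acid synthesis differed between mice given BDE-47 and mice given vehicle.

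The pathway starts in the cytosol, where citrate from mitochondria is split into acetyl-CoA, acetyl-CoA is carboxylated to malonyl-CoA, and fatty acid synthase joins malonyl units into palmitate with electrons from NADPH. Elongation and desaturation then turn palmitate into the longer and monounsaturated fatty acids that are stored as triglyceride. In the mammary gland of a mouse that is not lactating, most of the tissue is white fat, and adipocytes are a main site of the pathway beside the milk-making epithelium.

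The 10 members are spread over 5 chromosomes (RefSeq positions, build GRCm38.p6). Chromosome 11 carries Fasn (chr11:120805958-120825166, minus strand), Acly (chr11:100476352-100528000, minus), Srebf1 (chr11:60199084-60224186, minus) and Acaca (chr11:84129635-84401651, plus). Scd2 (chr19:44293676-44306864, plus) and Scd1 (chr19:44394450-44407709, minus) are neighbours, and the others are Acacb (chr5:114146321-114250761, plus), Mlxipl (chr5:135089890-135139768, plus), Elovl6 (chr3:129532386-129638495, plus) and Me1 (chr9:86581363-86695914, minus). RefSeq promoter windows, 250 bases before to 50 after a start site, were available for 8 members, and none was matched for Scd1 and Scd2. Each window was searched on both strands for an E-box (CACGTG, the core of the site used by USF and, as a pair, by the Mlxipl product), a sterol element core (TCACNCCAC), a CCAAT box (CCAAT) and a GC box (GGGCGG). The letters of these motifs do not overlap in the sequences shown, except that a CCAAT box in the Fasn promoter overlaps its own reverse complement. The 250 bases before the start are shown, with motif matches in capitals, for 3 enzymes whose levels moved together and for Mlxipl. Mlxipl moved least with the others over the 12 mice left once 3 that stood apart by their markers were set aside. Those 12 include BDE-47 replicate 7, where Mlxipl was near the floor.

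Fasn, chr11:120824548-120824797, minus strand: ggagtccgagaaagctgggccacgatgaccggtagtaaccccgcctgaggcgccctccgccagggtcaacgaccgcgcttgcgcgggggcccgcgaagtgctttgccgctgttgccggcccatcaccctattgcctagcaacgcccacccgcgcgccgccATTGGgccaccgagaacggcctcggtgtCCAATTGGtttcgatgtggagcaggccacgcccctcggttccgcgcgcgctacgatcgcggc

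Acly, chr11:100528001-100528250, minus strand: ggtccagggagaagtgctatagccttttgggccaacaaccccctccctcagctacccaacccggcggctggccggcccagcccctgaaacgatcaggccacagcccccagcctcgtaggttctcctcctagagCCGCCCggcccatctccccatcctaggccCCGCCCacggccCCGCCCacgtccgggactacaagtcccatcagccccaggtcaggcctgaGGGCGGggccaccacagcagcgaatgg

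Elovl6, chr3:129532136-129532385, plus strand: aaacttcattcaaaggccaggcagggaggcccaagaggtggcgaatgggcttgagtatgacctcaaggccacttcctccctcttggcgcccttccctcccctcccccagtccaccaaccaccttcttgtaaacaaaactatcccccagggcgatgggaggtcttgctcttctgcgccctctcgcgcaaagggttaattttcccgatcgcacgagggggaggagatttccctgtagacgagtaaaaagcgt

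Mlxipl, first start, chr5:135089640-135089889, plus strand: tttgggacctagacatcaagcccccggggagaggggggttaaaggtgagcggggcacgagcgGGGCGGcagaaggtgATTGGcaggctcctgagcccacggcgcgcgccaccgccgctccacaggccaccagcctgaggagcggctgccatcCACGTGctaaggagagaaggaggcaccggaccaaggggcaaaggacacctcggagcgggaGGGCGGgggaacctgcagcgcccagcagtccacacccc

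Mlxipl, second start, chr5:135106641-135106890, plus strand: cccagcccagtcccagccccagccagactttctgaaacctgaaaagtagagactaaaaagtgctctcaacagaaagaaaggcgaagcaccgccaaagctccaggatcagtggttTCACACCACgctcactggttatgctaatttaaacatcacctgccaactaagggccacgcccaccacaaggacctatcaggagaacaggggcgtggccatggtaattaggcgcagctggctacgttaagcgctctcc

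The Fasn stretch held 3 matches to the CCAAT box, at 90, 62 and 59 bases before the start, and the Acly stretch held 4 GC boxes. The Elovl6 stretch held none of the 4 motifs. An E-box was present in 1 of the 12 member windows, that of the first Mlxipl start, against 7.15% of 32851 windows of all genes. The sterol element core was likewise present in 1 of 12, at the second Mlxipl start, against 1.24% of all windows. A CCAAT box was present in 7 of the 12 windows and a GC box in 5 of 12, where 37.4% and 35.7% of all windows hold them. These are matches of letters and do not show binding.

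Depth was 10.06 to 19.58 M mapped reads per mouse, and 9511 genes reached 1 CPM in at least 7 mice and were tested with limma. Vehicle replicates 6 and 8 stood apart. In them all 8 B cell markers were above 1 CPM, whereas 1 or 2 were above it in each other mouse, and the mean log2(CPM) of 12 adipocyte markers was 3.86 and 4.92 against 8.00 to 9.28 in the other vehicle mice and 6.85 to 8.82 in BDE-47 mice. The adipocyte transcription factor Pparg was listed at 0 in both, and the mean of 10 mammary epithelial markers was 1.77 and 2.49 against 3.78 to 7.63 in the other 13 mice. BDE-47 replicate 6 stood apart by a mean of 13.1 for 8 skeletal muscle markers, against 2.05 to 4.14 elsewhere. Group differences are therefore given for all 15 mice and without vehicle replicates 6 and 8 (13 mice), and for many genes also without BDE-47 replicate 6 (12 mice). In whole tissue, fewer adipocytes and less transcript per adipocyte cannot be told apart.

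The lipogenesis transcripts were abundant. All 10 members passed the filter, and 9 were above 1 CPM in every mouse. Their summed level was 673 to 14279 CPM in vehicle mice (median 8366) and 1503 to 13003 CPM in BDE-47 mice (median 7785). The lowest sums were 673 and 920 CPM in vehicle replicates 6 and 8 and 1503 CPM in BDE-47 replicate 6, the 3 mice that stood apart by their markers. The other 12 mice lay between 3666 and 14279 CPM. Scd1 alone gave 38.6% to 72.8% of the sum.

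Levels are compared between genes in CPM without division by length, since the 3′ method counts about 1 tag per transcript. The order of mean log2(CPM) over 15 mice was Scd1 (11.54), Fasn (9.93), Acly (8.06), Me1 (7.99), Elovl6 (7.47), Scd2 (7.20), Acaca (6.76), Srebf1 (5.92), Mlxipl (4.56) and Acacb (4.34). Only the top of this order was stable: Scd1 exceeded Fasn in 15 of 15 mice, by 1.61 ± 0.62 (SD) in log2(CPM), and Fasn exceeded Acly in 15 of 15, by 1.87 ± 0.82. Every later step was smaller than its SD between mice, and Acly exceeded Me1 in 6 of 15 mice.

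**Figure D1:**
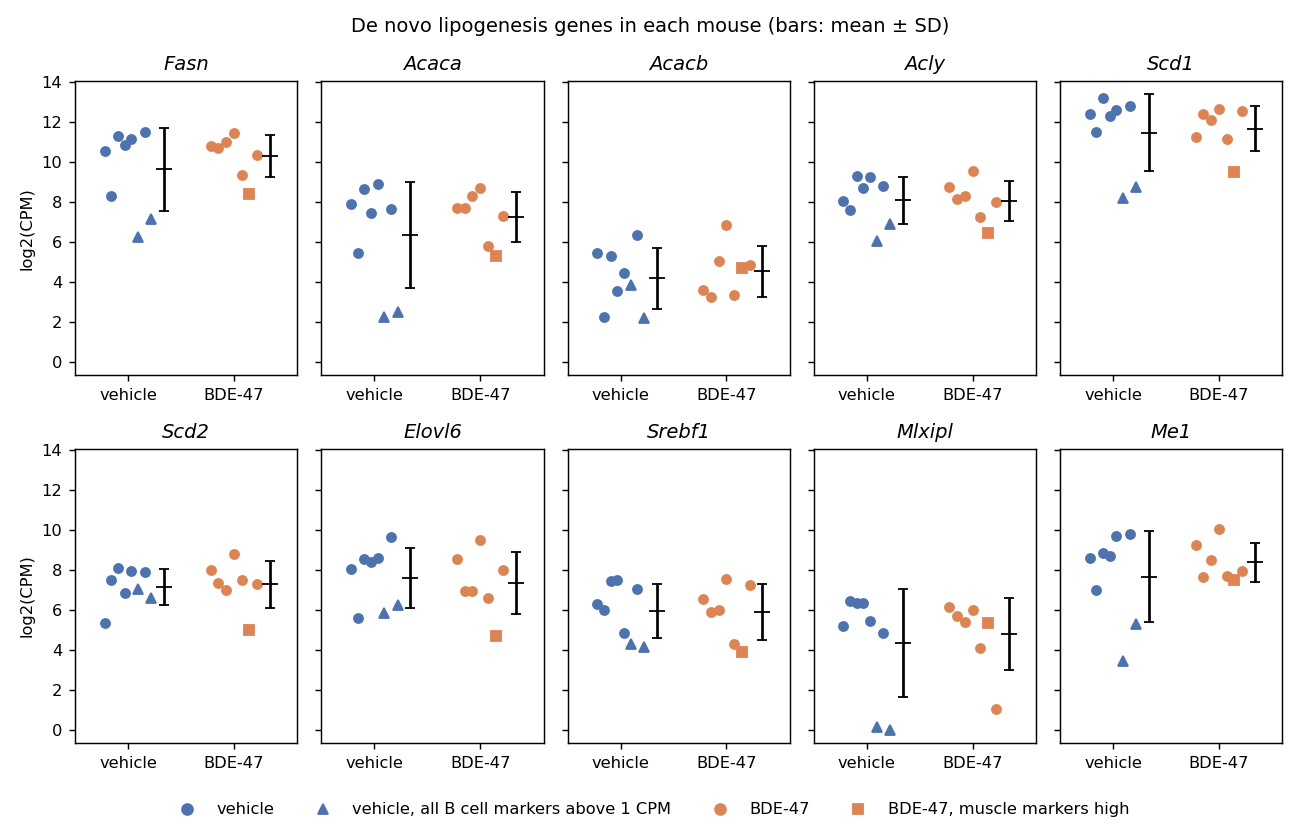
log2(CPM) of each of the 10 genes (vertical axes) in 8 vehicle mice (blue) and 7 BDE-47 mice (orange), with the mean ± SD in black; triangles are vehicle replicates 6 and 8 and the square is BDE-47 replicate 6. The groups overlap for all 10 genes, and the triangles are lowest for Fasn, Acaca, Scd1, Mlxipl and Me1 but lie among the other mice for Scd2.

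No member differed between groups beyond the spread between mice. Over 15 mice the mean was higher with BDE-47 for 7 members and lower for 3, beside 49.1% of all tested genes with a higher BDE-47 mean. Differences in mean log2(CPM) (BDE-47 minus vehicle) ran from -0.29 for Elovl6 to 0.91 for Acaca, with a median of 0.28 against -0.02 over all genes tested. By limma with Benjamini-Hochberg adjustment, 0 of 10 members and 0 of 9511 genes (0%) had an adjusted p under 0.05 (members 0.982 to 1.00). At an unadjusted limma p under 0.05 the numbers were 0 of 10 members and 443 of 9511 genes (4.66%). No member was past 2-fold, the effect size used in the study, where 26.3% of all tested genes were. That share includes genes listed at 0 in some mice. Of the 2579 genes above 1 CPM in all 15 mice, a set that holds 9 of the members, 257 were past 2-fold. The lowest exact two-sided permutation p of a member was 0.425, where the smallest possible with 7 and 8 mice is 0.000155.

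The direction of most differences depended on 2 mice. Without vehicle replicates 6 and 8, 9 of 10 members had the lower mean with BDE-47, beside 53.4% of 9675 genes tested, and the median difference was -0.48 against -0.07 over all genes. Again 0 members were past 2-fold, where 27.3% of all genes were, and 1 member, Scd1, had an unadjusted limma p under 0.05, where 4.5% of all genes did. Without BDE-47 replicate 6 as well, 8 members were lower and 2 higher with BDE-47, beside 50.1% of 9278 genes lower, with a median of -0.26, and 1 member (Mlxipl) was past 2-fold where 29.2% of all genes were. Of the 12 adipocyte markers, 10 had the higher mean with BDE-47 over 15 mice, beside 49.1% of all tested genes. Over 13 mice 11 of 12 had the lower, beside 53.4% of genes, with a median of -0.79. Over 12 mice the number lower was again 11 of 12, beside 50.1%, with a median of -0.63. The part of cell content in the member differences was not tested. With the mean of 11 adipocyte markers (the 12 without Lep, which is also on a pathway list) as a covariate in limma over 15 mice, the differences of the members ran from -0.57 (Elovl6) to 0.33 (Acaca).

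**Figure D2:**
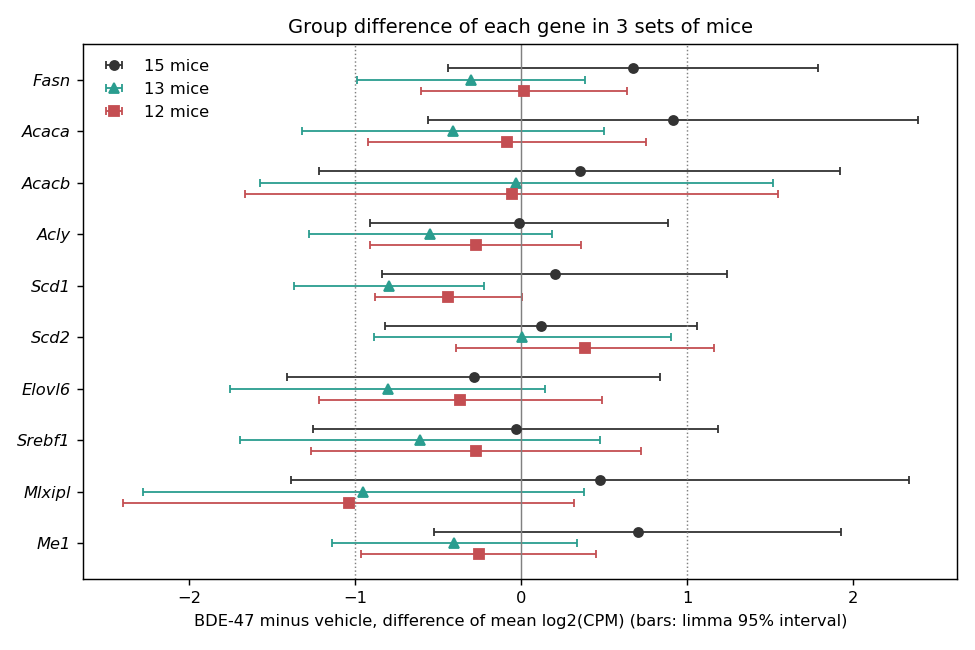
Difference of mean log2(CPM), BDE-47 minus vehicle, for each gene (horizontal axis, with limma 95% intervals) in 15 mice, in 13 mice without vehicle replicates 6 and 8, and in 12 mice also without BDE-47 replicate 6; dotted lines mark 2-fold. The interval excludes 0 only for Scd1 in 13 mice, -0.80 (-1.37 to -0.22), and the points of Fasn, Acaca, Mlxipl and Me1 lie right of 0 in 15 mice and left of 0 in 13.

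Of the enzymes that supply building blocks, Acly makes acetyl-CoA from citrate. Its log2(CPM) was 6.04 to 9.30 (median 8.36) in vehicle mice and 6.42 to 9.54 (median 8.13) in BDE-47 mice. The lowest 3 of the 15 values were those of vehicle replicate 6, BDE-47 replicate 6 and vehicle replicate 8. The group difference was -0.01 (limma standard error 0.44, exact permutation p = 0.983), and -0.55 over 13 mice (exact p = 0.287). Standard errors here and below are those of limma. Me1, the cytosolic malic enzyme that makes NADPH, was 3.42 to 9.76 (median 8.64) with vehicle and 7.49 to 10.05 (median 7.96) with BDE-47. Both values below 6 belonged to vehicle replicates 6 (3.42) and 8 (5.28), so that its difference of 0.70 (standard error 0.61, exact p = 0.478) became -0.40 without them (exact p = 0.469).

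The acetyl-CoA carboxylases make malonyl-CoA, Acaca in the cytosol for synthesis and Acacb at the mitochondrial surface, where malonyl-CoA restrains fatty acid oxidation. Acaca was 2.23 to 8.87 (median 7.54) in vehicle mice and 5.30 to 8.68 (median 7.69) in BDE-47 mice. It spanned 99.3-fold in CPM between the lowest and highest mouse, and 11.9-fold over the 13 mice. Its difference was 0.91 over 15 mice (standard error 0.73, exact p = 0.425) and -0.41 over 13 (exact p = 0.559). Acacb was 2.17 to 6.35 (median 4.15) with vehicle and 3.26 to 6.85 (median 4.69) with BDE-47, with a difference of 0.35 (standard error 0.78, exact p = 0.628) that was -0.030 over 13 mice (exact p = 0.968). Acaca exceeded Acacb in 14 of 15 mice, by 2.43 ± 1.71 in log2(CPM), and the exception was vehicle replicate 6, where Acacb was the higher by 1.64 in log2(CPM).

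Fasn, the fatty acid synthase, was 6.23 to 11.47 (median 10.69) in vehicle mice and 8.38 to 11.46 (median 10.70) in BDE-47 mice. The 3 lowest mice were vehicle replicate 6 (6.23), vehicle replicate 8 (7.15) and vehicle replicate 2 (8.27), followed by BDE-47 replicate 6 (8.38). The difference was 0.67 (standard error 0.55, limma 95% interval -0.44 to 1.79, exact p = 0.458), which is 1.59-fold. It was -0.30 over 13 mice and 0.02 over 12, with exact p = 0.642 and 0.981.

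Elovl6 lengthens palmitate to stearate. It was 5.59 to 9.61 (median 8.21) with vehicle and 4.71 to 9.50 (median 6.96) with BDE-47, a difference of -0.29 (standard error 0.56, exact p = 0.717). The lowest value was that of BDE-47 replicate 6, and the lowest vehicle value that of replicate 2, not of the mice with B cell transcripts. Over 13 mice the difference was -0.80 and over 12 it was -0.37, and neither exact p (0.341 and 0.580) passed 0.05.

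Scd1 and Scd2 are stearoyl-CoA desaturases that put a double bond into stearate and palmitate. Scd1 was 8.20 to 13.19 (median 12.34) in vehicle mice and 9.50 to 12.65 (median 12.09) in BDE-47 mice. The 6 other vehicle mice lay at 11.46 to 13.19, above vehicle replicates 6 (8.20) and 8 (8.71) and BDE-47 replicate 6 (9.50). The difference was 0.20 over 15 mice (standard error 0.51, exact p = 0.829). Over 13 mice Scd1 was 1.74-fold lower with BDE-47, a difference of -0.80 (standard error 0.29, limma unadjusted p = 0.00729, adjusted p = 0.993). The SD between mice was 0.58 with vehicle and 1.12 with BDE-47. The exact permutation p of the same difference, which does not use the variance of other genes, was 0.142. Over 12 mice the difference was -0.44 (exact p = 0.229), with 2 BDE-47 mice of 6 higher than the mean of the vehicle mice.

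Scd2 did not share the low values of Scd1 in vehicle replicates 6 and 8. It was 5.32 to 8.06 (median 7.27) with vehicle and 5.00 to 8.78 (median 7.33) with BDE-47, and its difference was 0.12 (standard error 0.46, exact p = 0.826), against 0.0067 over 13 mice and 0.38 over 12 (exact p = 0.992 and 0.504). Those mice (7.03 and 6.59) lay inside the range of the other vehicle mice, and the lowest values were those of BDE-47 replicate 6 (5.00) and vehicle replicate 1 (5.32). The excess of Scd1 over Scd2 was therefore 1.65 in log2(CPM) in vehicle replicates 6 and 8 and 4.76 in the other 13 mice on average. Scd1 shared 3.58% of its 30-base runs with Scd2 transcripts and 4.00% with Scd3 transcripts, so some reads could have been counted for either. Scd3 was above the floor in 1 mouse and Scd4 in none.

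Both regulators had lower mean levels than the enzymes other than Acacb. Srebf1, which encodes the sterol regulatory element-binding protein that turns on lipogenic genes under insulin, was 4.13 to 7.48 (median 6.15) in vehicle mice and 3.89 to 7.54 (median 5.97) in BDE-47 mice, a difference of -0.03 (standard error 0.60, exact p = 0.961). Over 13 mice the difference was -0.61 and over 12 it was -0.27 (exact p = 0.388 and 0.671). Its 4 lowest mice were BDE-47 replicates 6 and 5 and vehicle replicates 8 and 6, at 3.89 to 4.29. The tables hold 1 value for the gene, so its isoforms were not separated. Rai1, which overlaps Srebf1 on the opposite strand, was above 1 CPM in 12 mice and reached 5.41 in log2(CPM), and Tada2a, opposite to Acaca, was above it in 10 mice. Whether strand was used in counting is not given in the sources used here.

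Mlxipl, which encodes the carbohydrate response element-binding protein ChREBP, was the 1 member that fell under 1 CPM in any mouse. It was 0 to 6.44 (median 5.32) with vehicle and 1.04 to 6.13 (median 5.38) with BDE-47. It was listed at 0 in vehicle replicate 8 and stood at 0.13 in vehicle replicate 6, a value that rests on 17 reads, whereas the 6 other vehicle mice had 4.83 to 6.44. Among BDE-47 mice, replicate 7 had 1.04 (24 reads) and the others 4.08 to 6.13. The difference was 0.47 over 15 mice (standard error 0.92, exact p = 0.767), -0.95 over 13 (exact p = 0.270) and -1.04 over 12 (exact p = 0.260), so that its sign differed with and without the 2 vehicle mice near the floor. Without BDE-47 replicate 7 alone it was 1.10.

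Levels of many members were correlated from mouse to mouse, above all among Fasn, Acaca, Acly, Elovl6 and Me1. Because the 3 mice with B cell or muscle transcripts form a low cluster, correlations are given over the other 12 mice, for 45 pairs of members. The median Pearson r was 0.52 (range -0.15 to 0.92), 43 of 45 were positive, and 17 had a Benjamini-Hochberg adjusted permutation p under 0.05. With all 15 mice the number was 32 of 45 and the median 0.66, and with 13 mice 20 of 45 and 0.58. By Spearman's rho over 12 mice, 8 of 45 pairs passed. Acacb, not among the enzymes named above, had 5 of 9 pairs past the test by Pearson's r over 12 mice (median r 0.67). For Acacb the number was 1 of 9 over 13 mice and 4 of 9 over 15, so it changed with leaving out BDE-47 replicate 6.

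The closest pair over 12 mice was Elovl6 and Me1, with r = 0.92 (permutation p = 3e-05, adjusted 0.00135) and rho = 0.96 (permutation p = 1e-05, the smallest that 100000 resamples can give, adjusted 0.00045). Their r was 0.86 without the 2 mice farthest from the median of Elovl6. Acly and Me1 had r = 0.87 (permutation p = 0.0003, adjusted 0.00193) and rho = 0.88 (permutation p = 0.00028, adjusted 0.0042), and r = 0.84 without the 2 farthest mice. Fasn and Acaca had r = 0.91 (permutation p = 0.00017, adjusted 0.00193) and rho = 0.70 (permutation p = 0.0143, adjusted 0.0537), and r fell to 0.63 without the 2 farthest mice. These 5 enzymes span the path from citrate to stearate.

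Mlxipl passed the correlation test with no other member over 12 mice, with r from -0.15 to 0.38 and 0 of 9 pairs past it by Pearson's r. These 12 mice include BDE-47 replicate 7, where Mlxipl was 1.04 (24 reads) against 4.08 to 6.13 in the other BDE-47 mice. How far the low r of Mlxipl rests on that mouse was not tested. The r of Mlxipl with Acaca was 0.73 over 15 mice and 0.17 over 12, so the relation rested on the mice that stood apart. Of the 9 pairs of Mlxipl 5 passed over 15 mice and 0 over 13. Scd2 and Srebf1 also had 0 of 9 pairs past the test over 12 mice, with r from 0.09 to 0.52 and from 0.04 to 0.56. For Srebf1 the number was 6 of 9 over 15 mice and 4 of 9 over 13, so its 0 came with leaving out BDE-47 replicate 6, and for Scd2 it was 2 and 1. Srebf1 and Fasn had r = 0.45 (permutation p = 0.139, adjusted 0.232) and rho = 0.44 (permutation p = 0.154, adjusted 0.224). No pair of either regulator with an enzyme passed the test over these 12 mice.

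**Figure D3:**
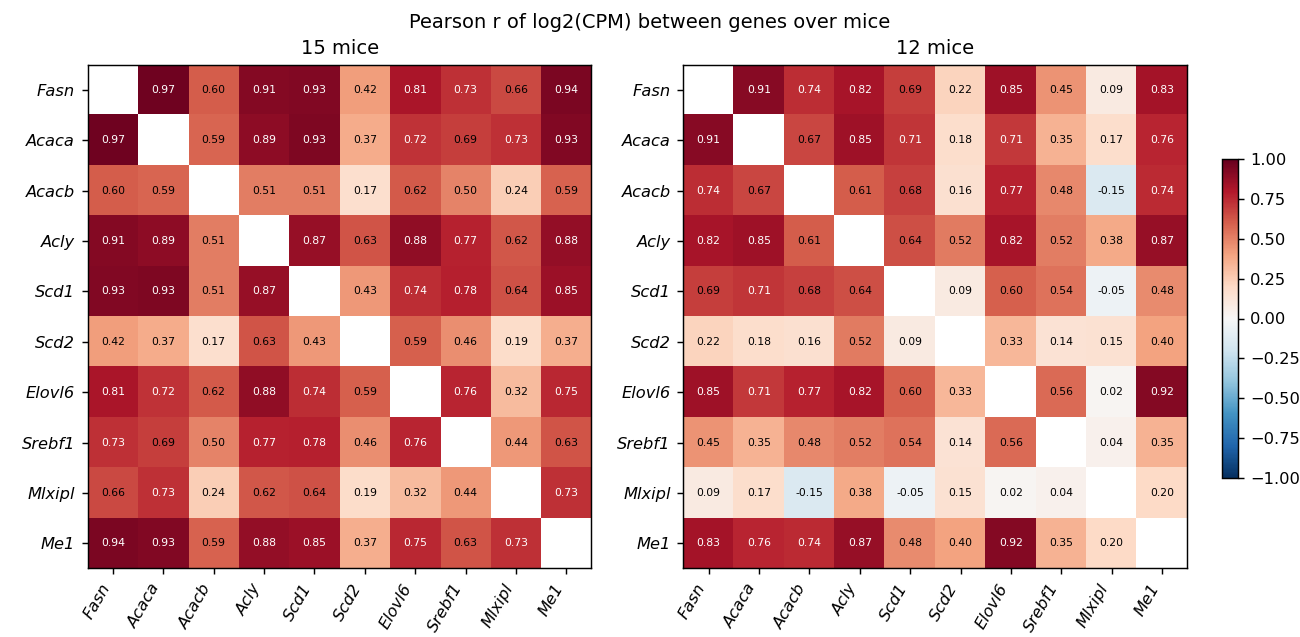
Pearson r of log2(CPM) for each pair of genes (rows and columns, color scale from -1 to 1) over 15 mice on the left and 12 mice on the right. Fasn, Acaca, Acly, Elovl6 and Me1 have r of 0.71 to 0.92 with each other over 12 mice, whereas the column of Mlxipl fades to between -0.15 and 0.38. The 12 mice include BDE-47 replicate 7, where Mlxipl was 1.04 in log2(CPM).

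Whether members passed the test against the adipocyte markers over 12 mice depended on 1 marker, Lep. Of these 12 mice, Lep was listed at 0 in BDE-47 replicate 2 and was 3.28 or more in the others. With the mean of all 12 markers 0 of 10 members correlated with an adjusted permutation p under 0.05, and with the mean of the 11 markers other than Lep 3 of 10 did, Acaca, Scd1 and Fasn, by Pearson's r and 0 of 10 by Spearman's rho. With 12 markers Acaca had r = 0.71 (permutation p = 0.00952, adjusted 0.0952) and rho = 0.60 (permutation p = 0.0433, adjusted 0.196), and r = 0.63 without the 2 mice farthest from the median of the marker mean. With 11 markers it had r = 0.79 (permutation p = 0.00372, adjusted 0.0372) and rho = 0.59 (permutation p = 0.0489, adjusted 0.387), and r = 0.29 without the 2 farthest, so that relation rests on those mice. Likewise with 11 markers the r of Scd1 fell from 0.73 to 0.39 and that of Fasn from 0.70 to 0.02. With 12 markers the r of Scd1 went from 0.65 to 0.52 and that of Fasn from 0.63 to 0.65. Over 15 mice 8 of 10 members passed with either mean by Pearson's r, and over 13 mice 6 of 10. By Spearman's rho 0 of 10 passed over 13 mice with either mean. No member correlated with the number of mapped reads past the adjusted test.

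Among 2570 other genes above 1 CPM in all mice, Thrsp was closest to the mean of the 9 members above 1 CPM in every mouse. Thrsp encodes Spot 14, a small lipogenic protein induced by thyroid hormone and carbohydrate. Its Pearson r with the member mean was 0.97 over 15 mice, 0.96 over 13 and 0.94 over 12, rank 1 of 2570 each time, as a description of these mice. It ranged from 4.57 in vehicle replicate 6 to 10.82 in vehicle replicate 5, and the group difference was 0.42 over 15 mice (exact permutation p = 0.680), -0.69 over 13 (exact p = 0.300) and -0.32 over 12. The next 4 over 15 mice were Pnpla3 (r = 0.93), a lipid droplet hydrolase, Agpat2 (0.93), an enzyme of triglyceride synthesis, 1700037H04Rik (0.92) and Cav2 (0.92), a caveolar protein. Over 12 mice 1700037H04Rik ranked 4th and the other 3 fell to ranks 26 to 32. The 3 most opposed genes over 15 mice were Slc44a2 (r = -0.77), Sugt1 (-0.74) and Pbxip1 (-0.73). Over 12 mice their r was -0.51, -0.29 and -0.75, at ranks 2424, 2046 and 2565 of 2570.

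**Figure D4:**
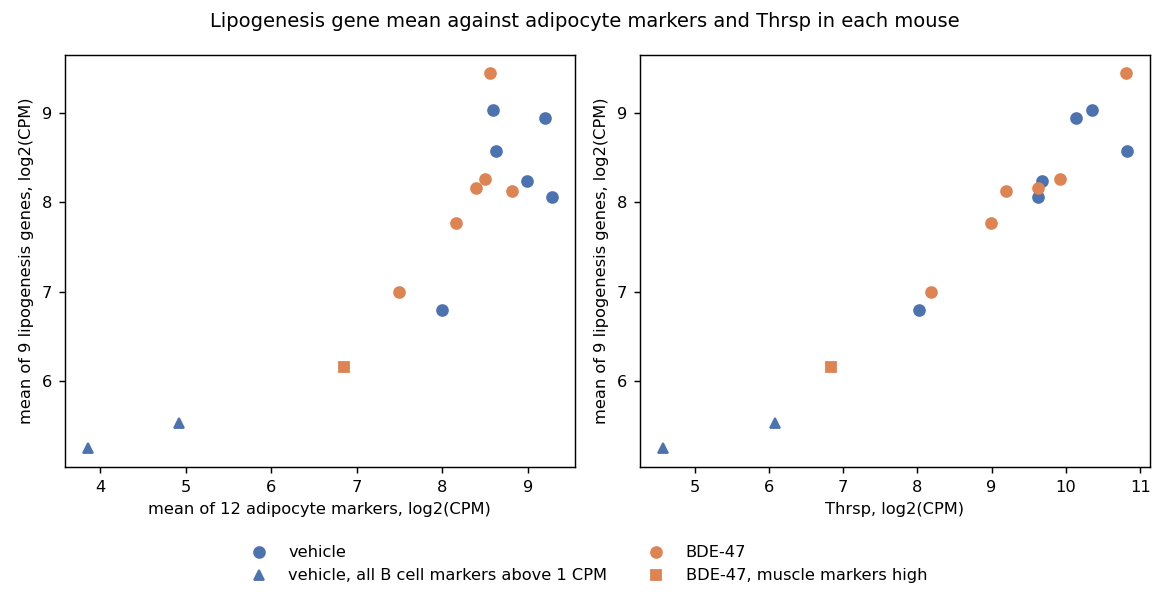
Mean log2(CPM) of the 9 lipogenesis genes above 1 CPM in every mouse (vertical axes) against the mean of 12 adipocyte markers (left) and against Thrsp (right), 1 point per mouse. Vehicle replicates 6 and 8 (triangles) lie at 3.86 and 4.92 on the left axis, and on the right all mice lie near 1 rising line from 4.57 to 10.82.

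Other genes around the pathway were followed in 4 lists of 68 genes, of which 61 were tested. Over 15 mice 0 of 61 had an adjusted limma p under 0.05, 38 had the higher mean with BDE-47 and 23 the lower, and 9 were past 2-fold (5 higher, 4 lower), where 26.3% of all genes were. Over 13 mice the split turned to 23 higher and 38 lower. At an unadjusted limma p under 0.05 were 3 of 61, Irs1 (higher), Usf1 (lower) and Stk11 (lower), where 4.66% of all genes were. Over 13 mice they were again 3 of 61, Stk11, Dgat1 and Hsd17b12, each lower, where 4.5% of all genes were. Over 12 mice they were 1 higher, Irs1, and 1 lower, Stk11, where 432 of 9278 genes were. Irs1 and Usf1 are named after their values were seen.

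Among genes of NADPH and carbon supply, 14 of 18 had the higher mean with BDE-47 over 15 mice, beside 49.1% of all genes, with a median difference of 0.33. Over 13 mice 5 of 18 were higher and the median was -0.35, and over 12 mice 5 of 18 and -0.32. The insulin-responsive glucose transporter Slc2a4 was 4.93 ± 2.18 (SD, n = 8) with vehicle and 6.08 ± 1.30 (SD, n = 7) with BDE-47. Its difference was 1.16 (exact p = 0.256), 0.15 over 13 mice and -0.13 over 12. The highest Slc2a4 value, 7.73, was that of BDE-47 replicate 6, the mouse with high muscle markers. Hexokinase Hk2 differed by 0.75 (exact p = 0.154) and by 0.53 over 13 mice (exact p = 0.340). The pentose phosphate enzymes Taldo1 and Tkt differed by -0.35 and -0.29 (exact p = 0.295 and 0.661), and by -0.67 and -0.68 over 13 mice (exact p = 0.0350 and 0.326). Over 12 mice they differed by -0.61 and -0.29 (limma unadjusted p = 0.0593 and 0.449).

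Of the elongation and desaturation genes, 9 of 13 were tested, 5 with the higher and 4 with the lower mean and a median of 0.02 over 15 mice. Over 13 mice and over 12 the split was 1 higher and 8 lower, with medians of -0.63 and -0.32. Fads1, the delta-5 desaturase of polyunsaturated fatty acids, was 3.69 ± 1.66 with vehicle and 4.92 ± 1.36 with BDE-47, a difference of 1.24 (exact p = 0.141) that was 0.59 over 13 mice and 1.06 over 12. Elovl5, which lengthens polyunsaturated fatty acids, was 6.32 ± 0.91 with vehicle and 5.22 ± 1.22 with BDE-47, a difference of -1.10 (exact p = 0.0553) that stayed near -1.03 over 13 mice and was -0.59 over 12. Fads3 differed by 0.10 and Hsd17b12, a reductase of the elongation cycle, by -0.47 (exact p = 0.911 and 0.253), and over 13 mice by -0.63 and -0.86 (exact p = 0.478 and 0.0245). Over 12 mice they differed by -0.25 and -0.67 (limma unadjusted p = 0.678 and 0.0645).

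Of the esterification genes, 8 of 10 were tested, 5 with the higher and 3 with the lower mean and a median of 0.66 over 15 mice. Over 13 mice 2 were higher and 6 lower with a median of -0.38, and over 12 mice 4 and 4 with -0.028. Dgat2, which completes triglycerides, was 7.52 ± 2.60 with vehicle and 8.48 ± 0.81 with BDE-47, a difference of 0.96 (exact p = 0.397) that was -0.38 without vehicle replicates 6 and 8. Agpat2 turned in the same way, with 0.97 (exact p = 0.385) and -0.38. Over 12 mice the difference was -0.14 for Dgat2 and 0.083 for Agpat2. Acsl5, which activates fatty acids, and Dgat1 differed by -0.51 and -0.21 (exact p = 0.582 and 0.755), and over 13 mice by -0.32 and -0.93 (exact p = 0.751 and 0.0163). Over 12 mice they differed by 0.37 and -0.64 (limma unadjusted p = 0.542 and 0.0581). The lowest Acsl5 value, 0.75, was that of BDE-47 replicate 6.

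Of the regulators and cofactors, 26 of 27 were tested, 14 with the higher and 12 with the lower mean, against 15 and 11 over 13 mice. Stk11, the kinase LKB1 that activates AMPK, was 5.62 ± 0.58 in vehicle mice (4.98 to 6.77) and 4.03 ± 1.95 in BDE-47 mice (0.72 to 5.79). Its difference was -1.59 (limma adjusted p = 0.982, exact permutation p = 0.0194) and -1.62 over 13 mice (exact p = 0.0641, limma unadjusted p = 0.0326). Over 12 mice it was -1.91 (limma unadjusted p = 0.0156, adjusted p = 0.959). The lowest Stk11 values were those of BDE-47 replicates 2 (1.87) and 4 (0.72). Irs1, the insulin receptor substrate, was 3.72 ± 2.39 with vehicle and 6.08 ± 1.06 with BDE-47, with 0 in vehicle replicate 8 and 0.04 in vehicle replicate 6. Its difference of 2.36 (exact p = 0.0197) was 1.13 over 13 mice (limma unadjusted p = 0.0567). Over 12 mice the Irs1 difference was 1.36 (limma unadjusted p = 0.0168, adjusted p = 0.959). Usf1, a factor that binds E-boxes, was above 1 CPM in 6 of the 8 mice given vehicle and in 2 of the 7 given BDE-47 (difference -2.27, exact p = 0.0308, and -1.58 over 13 mice, limma unadjusted p = 0.106). The sterol and nuclear receptor genes Rxra and Nr1h3 differed by 0.40 and -0.42 (exact p = 0.368 and 0.376), and by 0.59 and -0.59 over 13 mice (exact p = 0.228 and 0.257). These exact values are for single genes and were not adjusted.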

How the data were processed

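Mouse mammary RNA was sequenced by QuantSeq 3′ FWD. Reads were mapped by the authors with STAR (2.5.3a and GRCm38 in the submitters' processing notes) to RefSeq and normalized them to CPM. The deposited values are log2(CPM) with genes under 1 CPM listed at 0, and the log2 step and floor were read from the values. Depth came from the spacing of low values, which were whole reads, and 1 CPM stands for 10.06 to 19.58 reads. Counts under the floor are lost, so count models were not used.

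Of 52636 entries, 110 repeated names were dropped. Genes with at least 1 CPM in 7 mice were tested with limma 3.58.1 (R 4.3.3, trend in the prior variance) and Benjamini-Hochberg adjustment over all 9511 genes. Single genes were tested with exact two-sided permutation tests (6435 splits) and correlations with 100000 permutations, in Python 3.11.15, numpy 2.4.6, scipy 1.17.1 and pandas 2.3.3, with figures in matplotlib 3.10.9. The limma fit, the exact permutation test and the correlation test were tried on simulated data. Whether a mouse carried a xenograft, a covariate of the study, is not given by the labels and could not enter the fits. Mice were grouped by label. Permutation p-values measure the spread between single mice. The limma p-values, intervals and standard errors use a variance drawn toward a trend over all tested genes. For a single gene they can therefore be smaller or larger than its own spread between mice would give.

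The members and lists were chosen with earlier results of these data known. Named genes were all members, the 2 largest rises and falls of each pathway list among genes above 1 CPM in all mice, and the 5 genes most and 3 least correlated with the member mean. Alternatives changed the pseudocount, filter, scaling, weights, block and mice. Promoters and positions are from RefSeq (GRCm38.p6), and shared 30-base runs from GENCODE M39 transcripts.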

Additional observations from a re-analysis of the deposited data

Results flagged for a closer look

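In BDE-47 mice, Mlxipl in replicate 7 was 1.038 log2(CPM), while the other 6 mice lay between 4.08 and 6.13. Its gap to the nearest mouse was 0.598 of the whole range of the group, above Dixon's 95% limit. Of 22 groups of values examined (10 genes and the member mean in each group), this was the 1 that passed, and chance alone gives about 1 in 20.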

How the results depend on the processing

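No gene was called by limma under the alternatives set at the start (lowest adjusted p 0.0625, with array weights). Leaving out vehicle replicates 6 and 8 and BDE-47 replicate 6, an alternative chosen after seeing the data, gave 2 calls, Wfdc18 (higher with BDE-47) and Chchd2 (lower), neither a member and both named after their values were seen. The adjusted p of the members stayed between 0.808 and 1.00 over all alternatives. Members past 2-fold numbered 0 in all mice, 1 with median-of-ratios size factors, 1 without these 3 mice, and 0 to 2 when each mouse was left out. Members correlated with the mean of 11 adipocyte markers numbered 3 over 12 mice, 6 over 13 and 8 over 15, and 0 over 12 mice with Lep among the markers (added after seeing the data). Member pairs past the correlation test numbered 32, then 20 without vehicle replicates 6 and 8 and 17 without the 3 mice (added after seeing the data).

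Directions of the members turned under several settings, each with an adjusted p above 0.05 where tested. Without vehicle replicates 6 and 8, the difference turned for Fasn (-0.30), Acaca (-0.41), Acacb (-0.030), Scd1 (-0.80), Mlxipl (-0.95) and Me1 (-0.40). Without BDE-47 replicate 6 as well, the difference turned for Acaca (-0.086), Acacb (-0.058), Scd1 (-0.44), Mlxipl (-1.04) and Me1 (-0.26). With array weights, the difference turned for Scd1 (-0.17). With the mean of the adipocyte markers other than Lep as a covariate, the difference turned for Scd1 (-0.23) and Mlxipl (-0.035). As the log2 ratio of mean CPM, the difference turned for Scd1 (-0.21) and Mlxipl (-0.12). With median-of-ratios size factors, the difference turned for Acly (0.080) and Srebf1 (0.060). Without the mouse of each group with the fewest genes, the difference turned for Scd2 (-0.029). With each mouse left out in turn, directions turned at least once for Acacb (-0.034 to 0.66), Acly (-0.30 to 0.26), Scd1 (-0.26 to 0.56), Scd2 (-0.14 to 0.50), Elovl6 (-0.65 to 0.15), Srebf1 (-0.31 to 0.30) and Mlxipl (-0.15 to 1.10), and for Fasn, Acaca and Me1 they did not turn.

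The labels do not say that replicate numbers pair the mice, and the fits treated the mice as unpaired. Deviation correlations of same-numbered mice were -0.03 to 0.12 (2 of 7 over 0.1). These were not compared with differently numbered mice, so they do not settle whether mice were paired. With the replicate block, which leaves out vehicle replicate 8, limma called 0 genes, and Scd1 and Mlxipl turned to -0.19 and -0.15. Values under 1 CPM are not known, so at 10.06 to 19.58 M reads a difference below that level was not detectable, and the limma 95% interval over 15 mice reached past 2-fold for 9 of 10 members, with Acly the exception. The Acly interval (-0.91 to 0.88) uses a variance drawn toward the trend over all genes. Its SD between mice was 1.16 with vehicle and 1.01 with BDE-47, so a 2-fold change of Acly is not excluded. The cause of the changes was not tested.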
